A study of Mus musculus with 12 samples.

Results

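The genes described here encode the AP-1 transcription factors and a few other transcription factors that cells switch on as an immediate early response: Fos, Fosb, Fosl1 and Fosl2 of the Fos family, Jun, Junb and Jund of the Jun family, and Atf3, Egr1 and Ier2. Members were chosen by gene symbol in the annotation of the array's probes, from a list drawn up with earlier results of these data known. Of the 10 genes, 9 were named by at least 1 probe (12 probes in all) and Fosl1 by none in the annotation used here. The array named 19031 genes in all, of which 10112 passed the filter on detection and were tested. To pass, a gene needed 1 probe with a detection p under 0.05 on each of the 3 replicate arrays of some culture. Of the members, 7 passed, and Fosb and Ier2 did not. Fosl2, Jun, Junb, Jund and Egr1 were detected on all 9 replicate arrays. Fos passed through adherent mouse 1 and the spheroids, and Atf3 through adherent mouse 2 alone.

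The cells were prostate stem cells from prostate tissue of C57Bl/6 mice, measured with Illumina bead arrays after growth either attached to the dish as a monolayer or as free-floating balls of cells, called spheroids. No transgene or drug is named for any group. The 3 cultures were an adherent one from mouse 1, an adherent one from mouse 2 and a spheroid one from mouse 1, each with 3 replicate arrays and 1 array of the pooled replicates. Each culture stands for 1 mouse, the only spheroid culture came from mouse 1, and the labels do not say whether replicates were separate cultures, so the spread behind every p-value is that between arrays and may be technical.

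AP-1 is a dimer of basic leucine zipper proteins. Jun proteins can pair with one another or with a Fos protein, whereas Fos proteins need a partner, and the dimers bind the sequence TGACTCA or, with ATF and CREB family partners, TGACGTCA. Many of the genes are immediate early genes, which are transcribed within minutes of a growth factor, serum, stress or adhesion signal without new protein synthesis, through kinases of the MAP kinase pathways acting on factors already bound to their promoters. In epithelia such as the epidermis, AP-1 is known for its part in proliferation, wound repair and differentiation.

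The promoters of Fos, Jun and Junb are printed because Fos and Junb were called higher in spheroids than in either adherent culture while Jun was not, and because their start regions hold sequences of the AP-1 and CREB type. Each window is the 250 bases before the gene's start in RefSeq on the GRCm38.p6 build, 5′ to 3′ on the gene's strand. Fos is on the plus strand at chr12:85473640-85473889, Jun on the minus strand at chr4:95052223-95052472 and Junb on the minus strand at chr8:84978749-84978998. Capitals mark TGACG (the core of the CREB and ATF site), TGACATCA (an AP-1-like site of the Jun promoter) and TATAAA. Other variants of these sites were not searched and are not marked.
Fos: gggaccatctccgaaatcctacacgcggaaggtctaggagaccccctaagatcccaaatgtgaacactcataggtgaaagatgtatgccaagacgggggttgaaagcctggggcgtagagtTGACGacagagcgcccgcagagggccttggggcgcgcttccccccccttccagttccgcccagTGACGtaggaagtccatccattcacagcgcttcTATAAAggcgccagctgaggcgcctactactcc
Jun: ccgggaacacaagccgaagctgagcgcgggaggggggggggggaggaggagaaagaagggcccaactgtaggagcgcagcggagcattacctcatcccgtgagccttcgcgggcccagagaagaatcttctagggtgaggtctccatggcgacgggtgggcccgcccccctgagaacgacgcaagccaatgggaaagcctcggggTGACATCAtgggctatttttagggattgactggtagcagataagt
Junb: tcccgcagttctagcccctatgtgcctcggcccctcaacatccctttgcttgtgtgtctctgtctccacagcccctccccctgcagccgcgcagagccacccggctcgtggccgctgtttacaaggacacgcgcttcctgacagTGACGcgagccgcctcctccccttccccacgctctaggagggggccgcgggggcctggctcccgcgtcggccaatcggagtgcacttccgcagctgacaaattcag

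RefSeq windows were found for 7 of the 10 members, without Fosl1, Egr1 and Ier2. The Fos window held TGACG starting 129 and 66 bases before the start, and TATAAA starting 33 bases before it. Jun held TGACATCA starting 45 bases before the start, a site through which its protein is known to act on its own gene. Junb held TGACG starting 106 bases before the start. Of the windows not printed, Fosb held TGACG starting 60 bases upstream, Atf3 held it on the other strand at 7 bases, and Fosl2 and Jund held none of the letters searched. None of the 7 windows held TGACTCA, TGACGTCA, GCGTGGGCG (an Egr1 site) or the CArG box, which the serum response factor binds. Both strands were searched, and TGACG also lies within TGACGTCA. Of 32851 mouse promoter windows of the same length, TGACG was in 17.8%, TGACATCA in 2.93%, TATAAA in 12.4%, TGACTCA in 4.46%, TGACGTCA in 1.55%, the CArG box in 1.47% and GCGTGGGCG in 0.536%. These matches describe the letters only, and no binding was measured.

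Signals are log2 values after background correction and quantile normalization over the 12 arrays. Each array detected 43.1% to 49.1% of its probes. The signal that the brightest 10% of probes exceeded was 3.10 to 3.25 times background on spheroid replicate arrays and 3.83 to 4.74 times on adherent ones, and so differed with the culture form. Across genes, which are no replicates, arrays correlated at 0.975 to 0.994 within a culture and at 0.843 to 0.86 for a spheroid against an adherent array. The basal markers Krt5, Krt14, Trp63, Itga6 and Itgb4 were all detected on every replicate array, with summed signals of 39600 to 45000 over the 3 cultures, and 0 of 5 were called in any comparison. The fibroblast and smooth muscle markers, whose 7 genes were all on the array, summed to 22400 to 25800 in adherent mouse 1, 22600 to 28800 in adherent mouse 2 and 1490 to 1560 in the spheroids. That sum was carried by Vim and Acta2, while Col1a1 and Pdgfra were undetected on all replicate arrays. Of the luminal markers, 4 of 6 were on the array and summed to 6130 to 6490, 7150 to 7990 and 8020 to 8890 in the same order, but its members went different ways. Krt19 averaged 4.60, 8.53 and 12.35 on the log2 scale, Krt8 12.32, 12.55 and 11.48, and Krt18 10.17, 10.15 and 8.74, and the median difference of these 3 tested markers against both adherent cultures was -0.96. Leukocyte markers summed to 18 to 56, endothelial markers to 24.8 to 56.2 and neuroendocrine markers to 5.57 to 19.7, at or near background in all cultures. The part of these cell-type and signal differences in the results below was not tested, and in bulk RNA fewer cells of a type and less RNA per cell cannot be told apart.

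Spheroids carried more RNA of Fos, Fosl2, Junb and Jund than either adherent culture, and more Egr1 than adherent mouse 2. Jun and Egr1 were both lower in adherent mouse 2 than in adherent mouse 1. A gene was called at an adjusted p under 0.05 (limma, Benjamini-Hochberg over all 10112 genes) and a difference of at least 2-fold. Against the average of both adherent cultures, 5 of the 7 tested members were called higher (Fos, Fosl2, Junb, Jund and Egr1) and 0 lower, and their median log2 difference was 1.44 against -0.06 over all genes. Over all genes tested, 13.1% were called higher and 13.4% lower in that comparison. Spheroid arrays lay above all 6 adherent arrays for the same 5 members, as they did for 25% of all genes. Against adherent mouse 1 alone, 4 of 7 were called higher (background 13.4% higher and 14.1% lower), with a median of 1.16, and 5 had arrays that did not overlap (background 31.3%). Against adherent mouse 2 alone, 5 of 7 were called higher (background 13.2% higher and 13.6% lower), with a median of 1.48, and 6 did not overlap (background 29.3%). Between the adherent cultures 2 of 7 were called, both lower in mouse 2 (background 1.05% lower and 1.41% higher), with a median of -0.17, and 3 lay below mouse 1 without overlap (background 16.1%). These 4 comparisons share arrays and are not independent of one another.

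**Figure D1:**
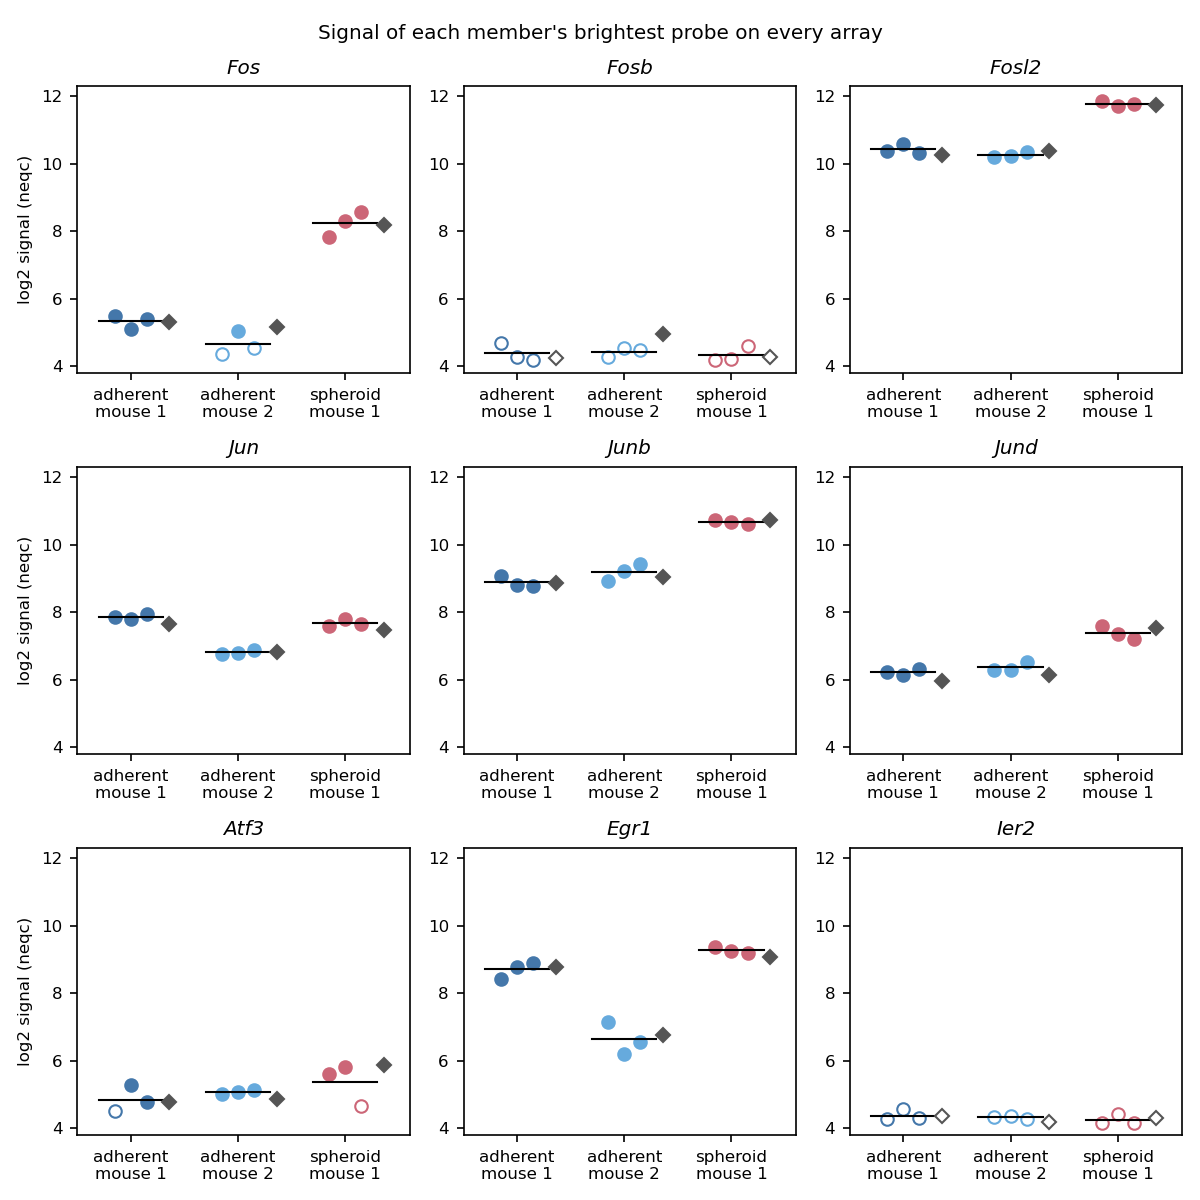
Log2 signal (vertical axis) of each member's brightest probe on every array, grouped by culture (horizontal axis); circles are replicate arrays, diamonds pools, lines the mean of the 3 replicates, and open marks arrays where the probe was undetected. Fos lies at 7.82 to 8.56 on the spheroid replicate arrays and at 4.35 to 5.50 on the adherent ones, and Egr1 separates adherent mouse 2 (6.21 to 7.15) from the other cultures.

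Fos encodes the founding member of the family, which binds DNA as a partner of a Jun protein. Its log2 signal was 5.50, 5.11 and 5.40 on the adherent mouse 1 arrays, 4.35, 5.05 and 4.54 on adherent mouse 2, and 7.82, 8.31 and 8.56 on the spheroids. All spheroid arrays were far above all adherent arrays, and each adherent mouse 2 array lay below each adherent mouse 1 array. The difference from adherent mouse 1 was 2.89 ± 0.23 (SE, n = 3 arrays each; 7.42-fold; limma adjusted p = 1.58e-07). From adherent mouse 2 it was 3.58 ± 0.23 (12.0-fold; limma adjusted p = 2.06e-08). Fos was detected on 1 of the 3 adherent mouse 2 arrays, so that culture sat near background and its level there is poorly measured. Against the average of the adherent cultures the rise was 3.24 ± 0.20 (limma adjusted p = 9.55e-09), the 197th highest of 10112 genes. The lower level in adherent mouse 2 than in mouse 1 did not pass (-0.69 ± 0.23, limma adjusted p = 0.0689). The pools gave 5.31, 5.15 and 8.18. Without background correction the rise against both adherent cultures was 1.47, still called.

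Fosl2 encodes Fra-2, a Fos family protein without the strong activation domain of Fos. Its brightest probe read 10.37, 10.58 and 10.31 in adherent mouse 1, 10.19, 10.22 and 10.35 in adherent mouse 2, and 11.85, 11.70 and 11.77 in the spheroids. The spheroid arrays stood clear of both adherent cultures, which overlapped each other. The spheroid difference was 1.36 ± 0.09 from mouse 1 (2.56-fold; limma adjusted p = 2.62e-08) and 1.52 ± 0.09 from mouse 2 (2.87-fold; limma adjusted p = 9.7e-09). Adherent mouse 2 minus mouse 1 was -0.17 ± 0.09 (limma adjusted p = 0.264). Fosl2 had 3 probes of the same transcript accession, and they did not give the same answer. A further probe, dim throughout, had mean signals of 4.42, 4.60 and 4.85 and was not called (0.34 ± 0.17 against both adherent cultures, limma adjusted p = 0.102 over 18950 probes). It was undetected on every adherent mouse 1 array, and its difference from that culture did not pass (limma adjusted p = 0.0827). The remaining probe did not pass the filter, with means of 4.56, 4.21 and 4.48. With both passing probes averaged the difference against both adherent cultures fell to 0.89, under the 2-fold limit.

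Fosb, which encodes another Fos family protein, was undetected on all 9 replicate arrays. Its signals were 4.70, 4.26 and 4.18 in adherent mouse 1, 4.26, 4.54 and 4.47 in adherent mouse 2, and 4.20, 4.21 and 4.59 in the spheroids, with no separation between cultures. The pool of adherent mouse 2 read 4.96 and was detected. Fosb was therefore not measurable above background on the replicate arrays, which does not show that the gene was silent.

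Junb encodes a Jun protein that is known to counter Jun in several settings. Its brightest probe read 9.08, 8.80 and 8.77 in adherent mouse 1, 8.91, 9.23 and 9.43 in adherent mouse 2, and 10.74, 10.68 and 10.60 in the spheroids. All spheroid arrays were above all adherent arrays, and the adherent cultures overlapped. The spheroid level exceeded that of mouse 1 by 1.79 ± 0.13 (3.45-fold; limma adjusted p = 6.56e-08) and that of mouse 2 by 1.48 ± 0.13 (2.79-fold; limma adjusted p = 4.53e-07). The adherent cultures differed by 0.30 ± 0.13 (limma adjusted p = 0.152). A second Junb probe, of another accession, was detected on 1 spheroid array and no adherent replicate array and did not pass the filter.

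Jund, the Jun family gene that many resting cells express steadily, read 6.22, 6.15 and 6.31 in adherent mouse 1, 6.30, 6.30 and 6.52 in adherent mouse 2, and 7.59, 7.34 and 7.22 in the spheroids. The spheroid arrays were again above all adherent arrays. The spheroid difference was 1.16 ± 0.16 from mouse 1 (2.23-fold; limma adjusted p = 2.31e-05) and 1.01 ± 0.16 from mouse 2 (2.02-fold; limma adjusted p = 8.14e-05). These sizes lie close to the 2-fold limit: without spheroid replicate 1 the values were 0.98 against both adherent cultures and 0.91 against mouse 2, and without adherent mouse 2 replicate 1 or unnumbered a they were 0.97 and 0.98 against mouse 2, all under it. In Jund the adherent cultures differed by 0.15 ± 0.16 (limma adjusted p = 0.583).

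Jun, the family's founding gene, did not follow Junb and Jund. Its signals were 7.86, 7.79 and 7.95 in adherent mouse 1, 6.76, 6.78 and 6.88 in adherent mouse 2, and 7.58, 7.80 and 7.66 in the spheroids. Adherent mouse 2 lay below every other array, while adherent mouse 1 and the spheroids overlapped. The spheroid level differed from mouse 1 by -0.19 ± 0.13 (95% interval -0.46 to 0.09; limma adjusted p = 0.233), which leaves out a rise of 2-fold. It exceeded mouse 2 by 0.87 ± 0.13 (limma adjusted p = 5.38e-05), under the 2-fold limit. Adherent mouse 2 was lower than adherent mouse 1 by a log2 difference of -1.06 ± 0.13 (2.08-fold; limma adjusted p = 0.00017), the 91st lowest of 10112 genes. The pools gave 7.64, 6.82 and 7.46, a mouse difference of -0.82. With an offset of 50 the difference was -0.87, and from the authors' normalized values -0.70, both under 2-fold. Jun's pattern over the 3 pairwise comparisons, called lower in mouse 2 than in mouse 1 and otherwise not called, was shared by 18 of 10112 genes.

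Atf3, a stress-induced bZIP factor that can pair with Jun proteins, stayed near background. It read 4.50, 5.28 and 4.77 in adherent mouse 1, 5.01, 5.07 and 5.13 in adherent mouse 2, and 5.61, 5.82 and 4.65 in the spheroids, detected on 2, 3 and 2 arrays. Spheroid replicate 3 lay within the adherent range and replicates 1 and 2 above it. The spheroid difference was 0.51 ± 0.29 from mouse 1 (95% interval -0.11 to 1.13; limma adjusted p = 0.145) and 0.29 ± 0.29 from mouse 2 (-0.33 to 0.91; limma adjusted p = 0.405), and neither interval settles the direction. The spheroid pool read 5.86, against 4.78 and 4.86 for the adherent pools.

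Egr1 encodes a zinc finger factor outside the bZIP class, whose gene answers the same early signals as Fos. Its log2 signal was 8.43, 8.79 and 8.90 in adherent mouse 1, 7.15, 6.21 and 6.55 in adherent mouse 2, and 9.38, 9.24 and 9.19 in the spheroids. In these values the 3 cultures did not overlap, with adherent mouse 2 lowest and the spheroids highest. Adherent mouse 2 was lower than adherent mouse 1 by a log2 difference of -2.07 ± 0.20 (4.20-fold; limma adjusted p = 2.98e-05), the 13th lowest of 10112 genes. The pools gave 8.78, 6.77 and 9.06, a mouse difference of -2.01. The spheroids exceeded adherent mouse 2 by 2.63 ± 0.20 (6.20-fold; limma adjusted p = 1.19e-07) and adherent mouse 1 by 0.56 ± 0.20 (95% interval 0.12 to 1.01; limma adjusted p = 0.0297), the latter under the 2-fold limit. With median scaling the difference from adherent mouse 1 was 0.19, and between the pools it was 0.28, so this step was small and its size depended on the scaling. The rise against the average of both adherent cultures, 1.60 ± 0.18 (limma adjusted p = 3.1e-06), averages the unequal differences from mouse 1 and mouse 2. Egr1 was 1 of 25 genes (0.247%) called higher in spheroids than in mouse 2, lower in mouse 2 than in mouse 1 and not called against mouse 1.

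Ier2, a small nuclear protein of the immediate early class, was undetected on all 9 replicate arrays, with mean signals of 4.38, 4.32 and 4.24. Without the detection filter, the differences of Fosb and Ier2 between cultures ran from -0.14 to 0.04, with limma adjusted p-values of 0.445 to 0.938 over 19031 genes. Values this close to background show no order between cultures.

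**Figure D2:**
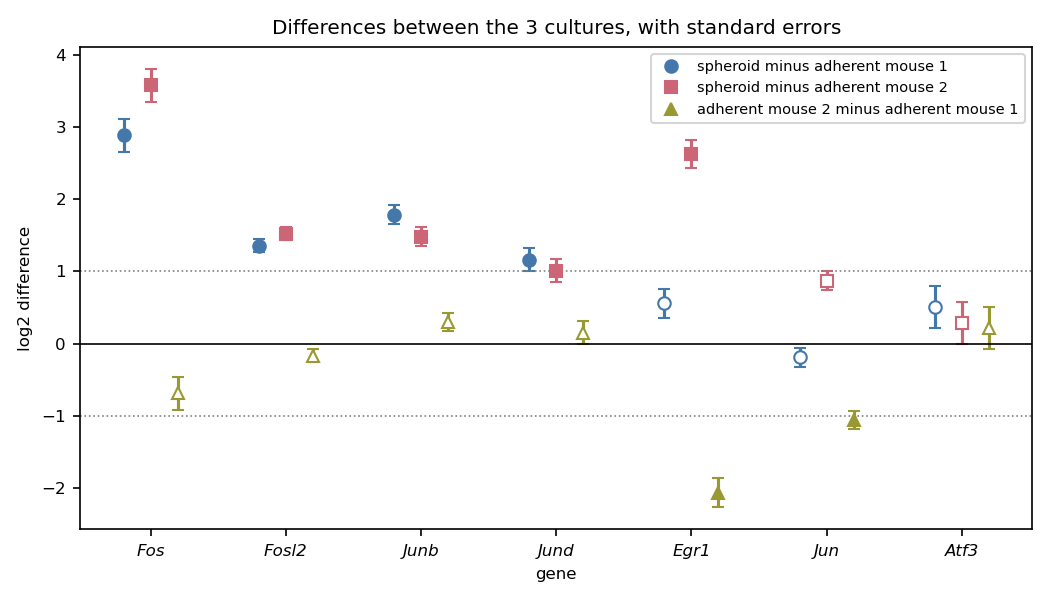
Log2 difference (vertical axis) of the 7 tested members (horizontal axis) for the pairwise comparisons of the 3 cultures, with bars for the standard error of the limma fit over 3 replicate arrays a culture. Fos, Fosl2, Junb and Jund are above 1 against both adherent cultures, while Egr1 and Jun are at -2.07 and -1.06 between the adherent cultures.

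Fos, Fosl2, Junb and Jund were called higher in spheroids against each adherent culture and not called between the adherent cultures, as were 1057 of 10112 genes (10.5%), so this pattern was a common one. Among members, the centred signals over the 9 replicate arrays were closest for Fosl2 and Jund (root mean square difference 0.25 on the log2 scale), Fosl2 and Junb (0.26) and Junb and Jund (0.30). Among other genes, Fos was closest to Aqp5 (0.25), Hcar2 (0.29) and Neat1 (0.29), and Fosl2 to Pold4 (0.06), Tuft1 (0.08) and Spop (0.09). Junb was closest to Tmc4 (0.09), Aqp3 (0.10) and Prkab1 (0.11), and Jund to Ifngr1 (0.09), Slc17a5 (0.09) and Pwwp2b (0.10). The nearest genes to Jun were Trmt1l (0.12), Uvssa (0.12) and Ivd (0.14), those to Egr1 were Papln (0.23), Sh3d21 (0.34) and Mgst1 (0.35), and those to Atf3 were Pip5kl1 (0.20), Leng8 (0.20) and Frg1 (0.21). This likeness rests on 9 arrays of 3 cultures and describes level patterns only.

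Genes of other bZIP proteins that pair or compete with AP-1 were mostly called higher or not called in spheroids. Of 26 listed, 19 were tested. Against both adherent cultures 9 were called higher and 1 lower, where 13.1% of all genes were called higher and 13.4% lower. The list's median was 0.54 against -0.06 over all genes. Ddit3, which encodes the stress factor CHOP, rose by 2.00 ± 0.15 and Atf5 by 1.47 ± 0.12 (limma adjusted p = 5.91e-08 and 1.37e-07). Cebpg, which encodes a short C/EBP protein, rose by 1.51 ± 0.08 on its brightest probe (limma adjusted p = 1.25e-09) and by 0.32 on another. Of the 9, Cebpa and Maff passed the filter through the spheroids alone, a route that favours genes high there, and 7 were called without them. Batf and Mafk, named because they passed in the same way, were not called (0.42 and 0.54). Cebpa averaged 4.56 and 4.71 in the adherent cultures, where 1 array of each detected it, and 6.07 in the spheroids. Cebpd was the single gene called lower (-1.41 ± 0.13, limma adjusted p = 6.57e-07). Against mouse 1 and mouse 2 alone 9 and 7 were called higher and 1 lower in each. The shares over all genes were 13.4% higher and 14.1% lower against mouse 1, and 13.2% and 13.6% against mouse 2. Between the adherent cultures 0 of 19 were called, where 2.46% of all genes were. With median scaling 3 were called higher and 2 lower, with a median of 0.52 against -0.35 over all genes. Of all 10112 genes, 881 were then called higher and 2327 lower.

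The other immediate early genes rose more often than they fell. Of 37 listed, 30 were tested, of which 11 were called higher and 1 lower against both adherent cultures, with a median of 0.79. The shares over all genes in that comparison were 13.1% higher and 13.4% lower. Dusp1, a phosphatase that switches off MAP kinases, went from 7.16 and 7.64 in the adherent cultures to 12.24 in the spheroids (4.84 ± 0.11, limma adjusted p = 7.48e-13). Plk3, a stress-responsive kinase, rose by 3.22 ± 0.16, and Zfp36, which promotes decay of AU-rich messenger RNAs, by 2.38 ± 0.10 (limma adjusted p = 8.28e-10 and 1.24e-10). Arc passed the filter through the spheroids alone, which leaves 10 called higher without it; it averaged 4.58 and 4.72 in the adherent cultures, near background with 1 array of each detecting it, and 8.52 in the spheroids. Ccn1, a secreted matrix-associated protein, was lower (-1.39 ± 0.18, limma adjusted p = 1.28e-05). Against mouse 1 alone the counts were 11 higher and 1 lower, Ccn1 (over all genes 13.4% higher and 14.1% lower). Against mouse 2 alone they were 13 and 1 (over all genes 13.2% and 13.6%). The gene lower against mouse 2 was Myc (-1.24 ± 0.20, limma adjusted p = 0.000138), while Ccn1 read -0.97 and was not called. Between the adherent cultures 0 of 30 were called, where 2.46% of all genes were. Ccn1 read -0.85 there, under the 2-fold limit (limma adjusted p = 0.0171). With median scaling 1 of 30 was called there (3% of all genes), Klf4, which was higher in mouse 2. With median scaling 11 were called higher and 2 lower against both adherent cultures. Of all 10112 genes, 881 were then called higher and 2327 lower.

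Among the upstream kinases and promoter factors, 16 of 28 were tested, with 3 called higher and 2 lower and a median of 0.19. These counts are not far from the shares over all genes, 13.1% higher and 13.4% lower. The genes called higher were Mapk13, which encodes a p38 kinase (5.05 ± 0.12, limma adjusted p = 1.36e-12), the upstream kinase gene Map2k3 (1.02 ± 0.08, limma adjusted p = 7.46e-08) and Mapk14, which encodes another p38 kinase (1.00 ± 0.17, limma adjusted p = 0.000203), the latter pair close to the 2-fold limit. Against mouse 2 alone Mapk14 read 0.86 and was not called, and Mapk11, a further p38 gene picked out after its values were seen, was not called against either adherent culture. The serum response factor gene Srf was lower (-1.17 ± 0.12, limma adjusted p = 1.17e-06; another probe -0.31), as was Elk3, one of its partner factors (-1.34 ± 0.33, limma adjusted p = 0.0032). None of the 16 (0 of 16) was called between the adherent cultures, where 2.46% of all genes were. With median scaling Mapk13 alone was called higher (1 higher, 2 lower, median -0.29 against -0.35 over all genes). Of all 10112 genes, 881 were then called higher and 2327 lower.

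Genes listed as reported AP-1 targets were called in both directions. Of 20 listed, 10 were tested, and 2 were called higher and 4 lower, with a median of -0.66. The shares over all genes were 13.1% higher and 13.4% lower. Hbegf, a ligand of the EGF receptor, rose by 1.57 ± 0.16 and Lor, a protein of the cornified envelope, by 1.47 ± 0.13 (limma adjusted p = 1.14e-06 and 4.11e-07). The urokinase gene Plau was lower (-3.06 ± 0.30, limma adjusted p = 9.84e-07), as were the protease inhibitor Timp1 (-2.21 ± 0.17), the cyclin gene Ccnd1 (-1.59 ± 0.06) and Odc1 of polyamine synthesis (-1.02 ± 0.07; limma adjusted p = 7.09e-08, 8.45e-11 and 4.43e-08). Against mouse 2 alone Lor read 0.90, and against mouse 1 alone Odc1 read -0.88, both under the 2-fold limit and not called. Between the adherent cultures Lor and Plaur were higher in mouse 2, and these were the 2 of 10 called (1.41% of all genes were called higher). With median scaling 1 was called higher and 6 lower against both adherent cultures. Of all 10112 genes, 881 were then called higher and 2327 lower.

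Heat shock genes were listed because cell handling can raise them together with immediate early genes. Of 11 listed, 10 were tested, with 3 called higher and 2 lower against both adherent cultures and a median of -0.45 (1 higher and 5 lower with median scaling). Over all genes the shares without that scaling were 13.1% higher and 13.4% lower. With it, 881 of 10112 genes were called higher and 2327 lower. Hspb1 rose by 1.20 ± 0.10, while the mitochondrial chaperone genes Hspd1 and Hspe1 were lower (-1.51 ± 0.07 and -1.41 ± 0.14; limma adjusted p = 1.34e-07, 8.03e-10 and 1.15e-06). Hspa1a and Hspa1b, near-identical genes whose probes may not tell them apart, were, like Egr1, lowest in adherent mouse 2. Hspa1a averaged 6.51, 4.94 and 7.22 and Hspa1b 7.25, 5.63 and 7.58 in adherent mouse 1, adherent mouse 2 and the spheroids. The spheroids differed from adherent mouse 1 by 0.72 ± 0.17 for Hspa1a and 0.33 ± 0.21 for Hspa1b, neither of them called. Both were called lower in adherent mouse 2 than in mouse 1 (-1.57 ± 0.17 and -1.62 ± 0.21, limma adjusted p = 7.71e-05 and 0.000312). They made up the 2 of 10 called there, where 1.05% of all genes were called lower. Another Hspa1b probe read -0.85, under the 2-fold limit. The part of Hspa1a and Hspa1b in the Egr1 and Jun differences was not tested.

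**Figure D3:**
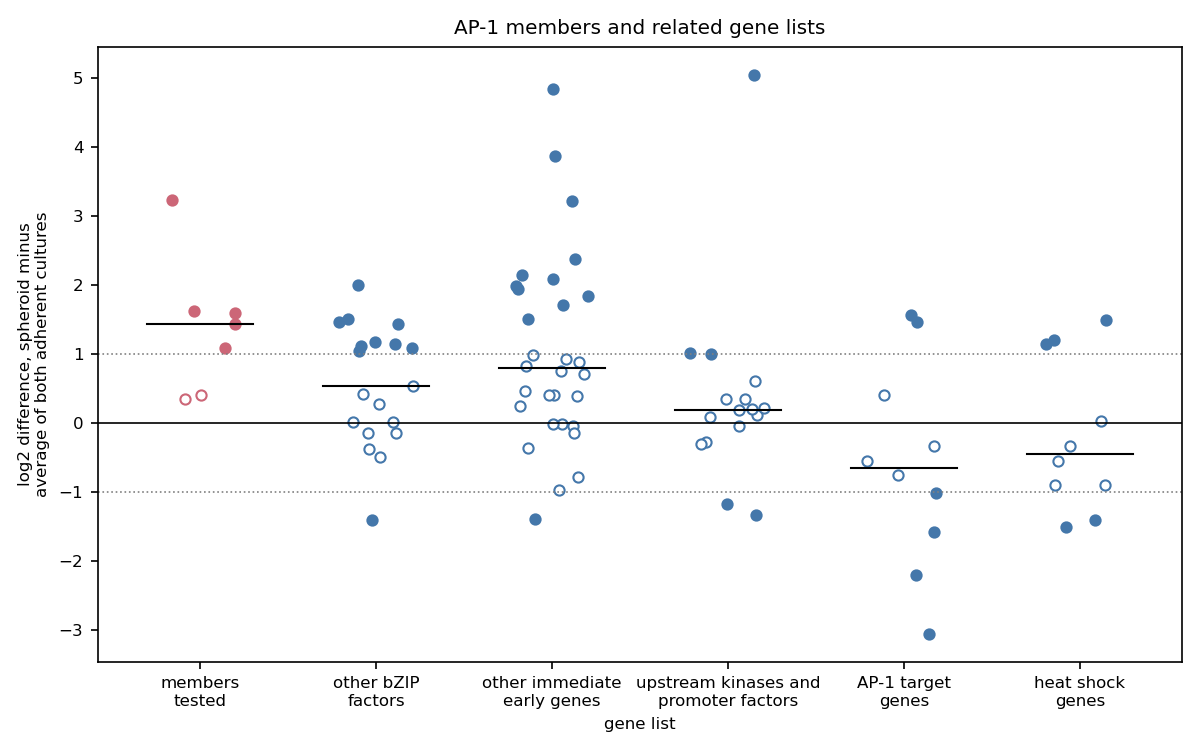
Log2 difference between spheroids and the average of both adherent cultures (vertical axis) for each tested gene of the AP-1 members and of the 5 related lists (horizontal axis); filled points are called genes, open points genes not called, short lines medians and dotted lines 2-fold. The median is 1.44 for the members, 0.79 for other immediate early genes and -0.66 for the reported target genes.

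The sizes of these differences depended on how the arrays were scaled. Median scaling in place of quantile normalization moved the median of all genes by -0.29 against both adherent cultures, and of all genes called there 27.5% were then higher, against 49.4%. It left 3 members called against both adherent cultures, where Fosl2 read 0.94 and Jund 0.69, both under 2-fold. Of all genes 31.7% were called there with that scaling. Against mouse 2 alone Junb read 0.89. Relative to the shifted median of all genes, the differences from mouse 1 were 2.80 for Fos, 1.69 for Junb, 1.23 for Fosl2 and 1.12 for Jund. From mouse 2 they were 3.61 for Fos, 1.33 for Junb, 1.35 for Fosl2 and 0.95 for Jund, the last under 2-fold. Fos and Egr1 kept their calls, each in the comparisons where it was called, under every alternative that held them; Fos was not among the genes detected on all 9 arrays.

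**Figure D4:**
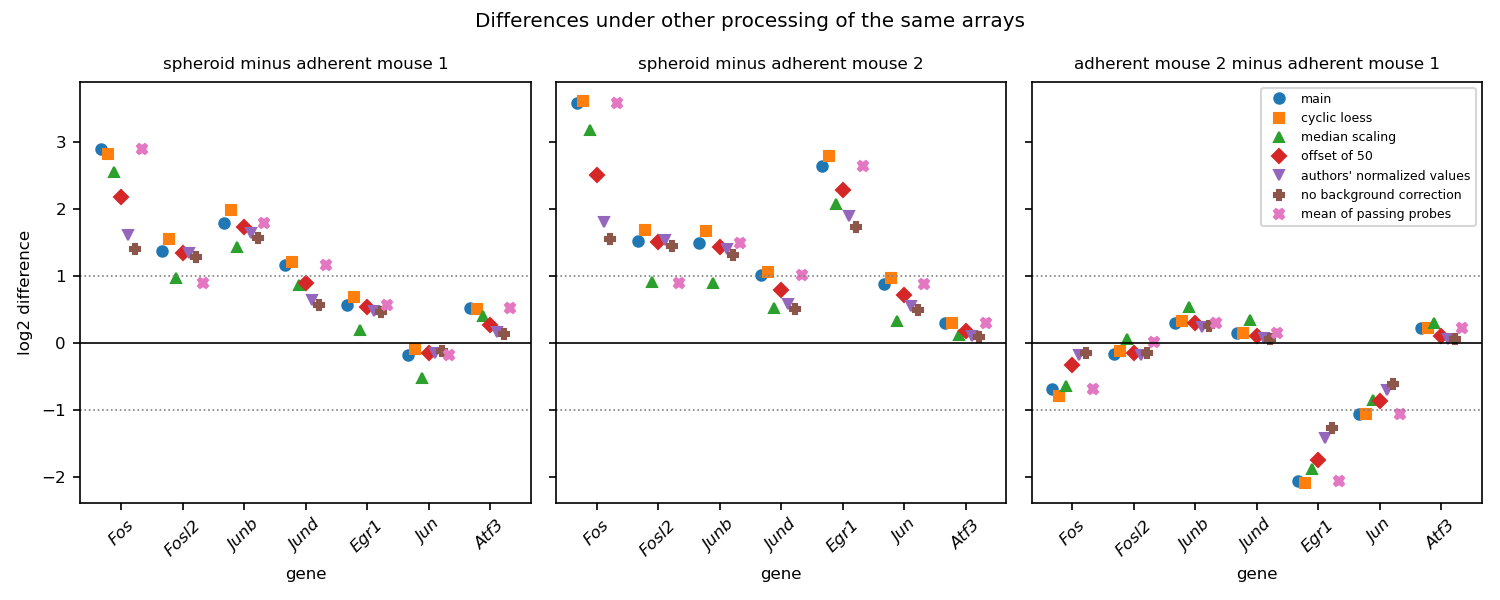
Log2 difference (vertical axis) of each tested member (horizontal axis) as reported (main) and under 6 other settings, 1 panel per pairwise comparison; dotted lines mark 2-fold. Fos against adherent mouse 1 reads 2.89 as reported and 1.39 without background correction, and Jund 1.16 and 0.56, the latter under 2-fold.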

How the data were processed

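Per the file headers, the table used holds intensity values, deposited without normalization as the mean over a probe's beads, and a detection p-value, for 45135 probes on 12 arrays. Per the labels, biotinylated cRNA was made from total RNA. The authors also deposited normalized intensities on a linear scale, whose method is not given in the sources used here; these served as an alternative. The header gives 2 columns of adherent mouse 2 the same name, so those arrays are called unnumbered a and b.

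The intensities were processed with limma 3.58.1 in R 4.3.3: neqc (background inferred from the detection p-values, offset 16, quantile normalization), then 1 probe per gene, the brightest that passed, chosen over the 9 replicate arrays. The offset understates changes of dim genes. Of the probes, 34773 had 1 gene symbol in the platform annotation, 18 several and 10344 none, and 34695 matched a current gene by Entrez identifier. A mean per culture was fitted (lmFit, eBayes with trend). Pools were normalized with the rest but not fitted. The number of arrays limits the precision. The fit was also run on simulated data with independent noise on each array and far fewer changed genes than were called here. Such a run cannot show whether the replicates were independent. The members, lists and tests were chosen with earlier results of these data known. The text names all members, up to 4 called genes per list and direction with the largest change, and the 3 genes nearest to each tested member. Alternatives covered scaling, background, offset, filter, probe choice, the replicate block and each array left out.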

Additional observations from a re-analysis of the deposited data

How the results depend on the processing

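Over 28 member results and 552 alternative values, 516 kept their direction and side of the threshold, 31 kept the direction but lost the call, and 5 changed sign. Requiring detection on all 9 arrays left out Fos and Atf3. With median scaling the counts of members called were 3 against both adherent cultures, 2 against mouse 1, 2 against mouse 2 and 1 between the adherent cultures. In the same order, 31.7%, 30.4%, 34.2% and 3% of all genes were called in either direction with that scaling. Between the adherent cultures the count was also 1 without background correction, with an offset of 50 and with the authors' normalized values, where Jun fell short of 2-fold. The sign changed for Jun against both adherent cultures (-0.10, median scaling) and, between the adherent cultures, for Fosl2 (0.06 with median scaling, 0.01 with the mean of passing probes), for none of which the cause was tested. Jund lost its call in 19 alternatives over its 3 spheroid comparisons. Leaving out 1 array at a time gave 4 to 5 members called against both adherent cultures, 4 against mouse 1, 4 to 5 against mouse 2 and 2 between the adherent cultures. In the same order, 25.5% to 26%, 26.6% to 27.2%, 25.6% to 27.3% and 2.14% to 3.66% of all genes were then called. Without adherent mouse 2 replicate 1, all genes called between the adherent cultures went from 249 to 384. Calls over all genes against both adherent cultures were 2684, with 1283 without background correction, 1478 from the authors' normalized values and 6439 at any fold; against mouse 1 they were 2786, 1348, 1539 and 5950, against mouse 2 2705, 1305, 1502 and 6064, and between the adherent cultures 249, 50, 63 and 1350 (102 with an offset of 50). With median scaling the share of called genes that were higher was 31.9% against mouse 1 (main 48.8%), 23.1% against mouse 2 (49.2%) and 77.9% between the adherent cultures (57.4%). The replicate numbers did not pair the arrays: same-numbered arrays correlated at -0.25 to 0.11 in their deviations and others at -0.22 to 0.26, and 1 of 9 arrays correlated best with its own number. With the replicate block on the 7 numbered arrays the counts were 5, 4, 5 and 2 (over all genes 27.3%, 27.6%, 28.8% and 3.07%). Between the adherent cultures Junb then read -0.10 and Jund -0.03. On the authors' normalized values with the block the counts were 4, 3, 4 and 1 (over all genes 14.6%, 15.2%, 14.9% and 0.623%).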
